A study of Mus musculus with 6 samples.

Results

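Transcripts of 8 cell cycle inhibitor and p53 genes were followed in leukocytes of the soleus muscle of young and old mice: the inhibitors Cdkn1a, Cdkn1b, Cdkn2a and Cdkn2d, the transcription factor gene Trp53, and its targets Mdm2, Ccng1 and Gdf15. The genes were chosen by symbol as transcripts linked to senescence, and they are 8 of 19721 genes with at least 1 UMI (unique molecular identifier, 1 counted RNA molecule) in the cells kept. CD45+ DAPI− cells had been sorted from pooled solei of male C57BL/6 mice aged 4 to 5 months (young) or 20 to 22 months (old). At each age there were ambulatory controls, mice after hindlimb unloading (HU), in which the hindlimbs bear no weight, and mice on day 4 of reloading after HU. The labels name no transgene or mutant allele, and each of the 6 groups is 1 library of pooled animals, so old and young could not be tested against each other inside 1 treatment. Both control libraries came from 1 sequencing run and the HU and reload libraries from another, so the effect of control against HU or reload and that of the run cannot be told apart.

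Cells arrest before DNA replication when inhibitor proteins block the cyclin-dependent kinases (CDKs). Cdkn1a encodes p21, a broad CDK inhibitor and a classic target of the p53 protein, and Cdkn1b encodes p27, its relative. Cdkn2d encodes p19Ink4d, which blocks CDK4 and CDK6, and Cdkn2a encodes both p16Ink4a and p19Arf, which are widely used as senescence markers. Mdm2 encodes the ubiquitin ligase that degrades p53, Ccng1 encodes cyclin G1, and Gdf15 encodes a secreted stress cytokine of the TGF-beta family that p53 and the integrated stress response both induce. In macrophages Cdkn1a is also known as a gene of differentiation and inflammatory control, so its transcript is not a measure of senescence on its own.

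There were 12220 kept cells of 15467 barcodes, with 1494 to 2568 cells in each library and median depths of 2539 to 7883 UMIs. A cell was given a class when it held at least 3 of 8 markers of that class and more than of any other, and 20.2% of cells stayed unassigned. None of the 8 genes is a marker. Macrophages held all 8 macrophage markers in each library, at a summed 8718 to 19059 CPM (UMIs scaled to the same total for every class and library), with T cell markers at no more than 22.9 CPM. The gate used these same markers, so the sums describe the gated cells and are no separate check of the class. Neutrophil markers in the macrophages of the HU libraries are given below. Cells with endothelial and fibroblast markers were also present in spite of the CD45+ sort, and reached 30 cells in both HU libraries. The young HU library stood apart from its old counterpart, with 27.5% of its barcodes over the mitochondrial limit against 9.60% in old HU. The young reload library exceeded the limit in 33.3% of barcodes, against 17.4% in old reload. The control libraries shared 41 barcodes, and other pairs of libraries 5 to 17. In a mixed population, fewer cells of a type and less RNA per cell cannot be told apart, so values are given within classes.

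The promoter sequences of Cdkn1a and Mdm2 are shown because both genes are p53 targets whose transcripts were low together in the macrophages of the young HU library. They are the RefSeq windows of GRCm38.p6, 250 bases each, 5′ to 3′ on the strand of the gene, at chr17:29090729-29090978 for Cdkn1a (plus strand) and chr10:117710759-117711008 for Mdm2 (minus strand). Capitals mark the pair of half-sites of a p53 response element that had the fewest mismatches. The element was searched by its name on both strands as 2 sites of 10 bases. At most 13 bases between the sites and at most 2 mismatches were allowed.

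Cdkn1a: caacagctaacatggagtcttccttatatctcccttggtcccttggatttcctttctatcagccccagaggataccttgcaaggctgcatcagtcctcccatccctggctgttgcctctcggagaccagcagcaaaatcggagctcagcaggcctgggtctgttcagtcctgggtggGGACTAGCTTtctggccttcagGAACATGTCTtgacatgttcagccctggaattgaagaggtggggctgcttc

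Mdm2: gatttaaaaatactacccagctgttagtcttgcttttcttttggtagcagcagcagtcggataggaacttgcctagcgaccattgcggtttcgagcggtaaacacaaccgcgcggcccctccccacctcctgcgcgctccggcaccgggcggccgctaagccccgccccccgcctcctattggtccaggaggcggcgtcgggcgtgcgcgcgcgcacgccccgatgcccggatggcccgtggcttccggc

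The marked Cdkn1a pair had 0 mismatches and a spacer of 12 bases, and it lay 73 to 42 bases before the start that this window precedes. Another RefSeq window of Cdkn1a lies further downstream, at chr17:29093519-29093768, and held no match. Its second half-site is followed directly by tgacatgttc, which was left in lower case. These adjoining sites also meet the search, with more mismatches and no spacer. Which pair p53 binds was not tested. Of 32851 mouse promoters of the same length, 1.75% held a match to the search. Among the 8 genes it was found only in this upstream window of Cdkn1a, and among 16 other p53 targets with a promoter sequence in Bax, Rps27l and Sesn1. The windows leave out introns, where the p53 sites of Mdm2 are known to lie. Cdkn1a spans 29090976 to 29100727 on chromosome 17 in GRCm38, and an annotated transcript on the opposite strand overlaps it that is not a row of the files. The Cdkn2a transcripts for p16Ink4a and p19Arf share 575 exon bases, including the last exon, so counts from the 3′ end do not separate them.

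Cdkn1a was by far the most counted of the 8 genes, with 51099 UMIs in 8082 cells, or 66.1% of kept cells. Mdm2 had 10669 UMIs in 34.7% of cells and Gdf15 had 7799 UMIs in 10.9%. Cdkn2d, Trp53, Cdkn1b and Ccng1 had between 2883 and 4040 UMIs each. Cdkn2a had only 91 UMIs in 58 cells, 0.475% of cells. Levels are compared below between cells for 1 gene and never between genes, because UMIs from the 3′ end do not correct for how well each transcript is captured.

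**Figure D1:**
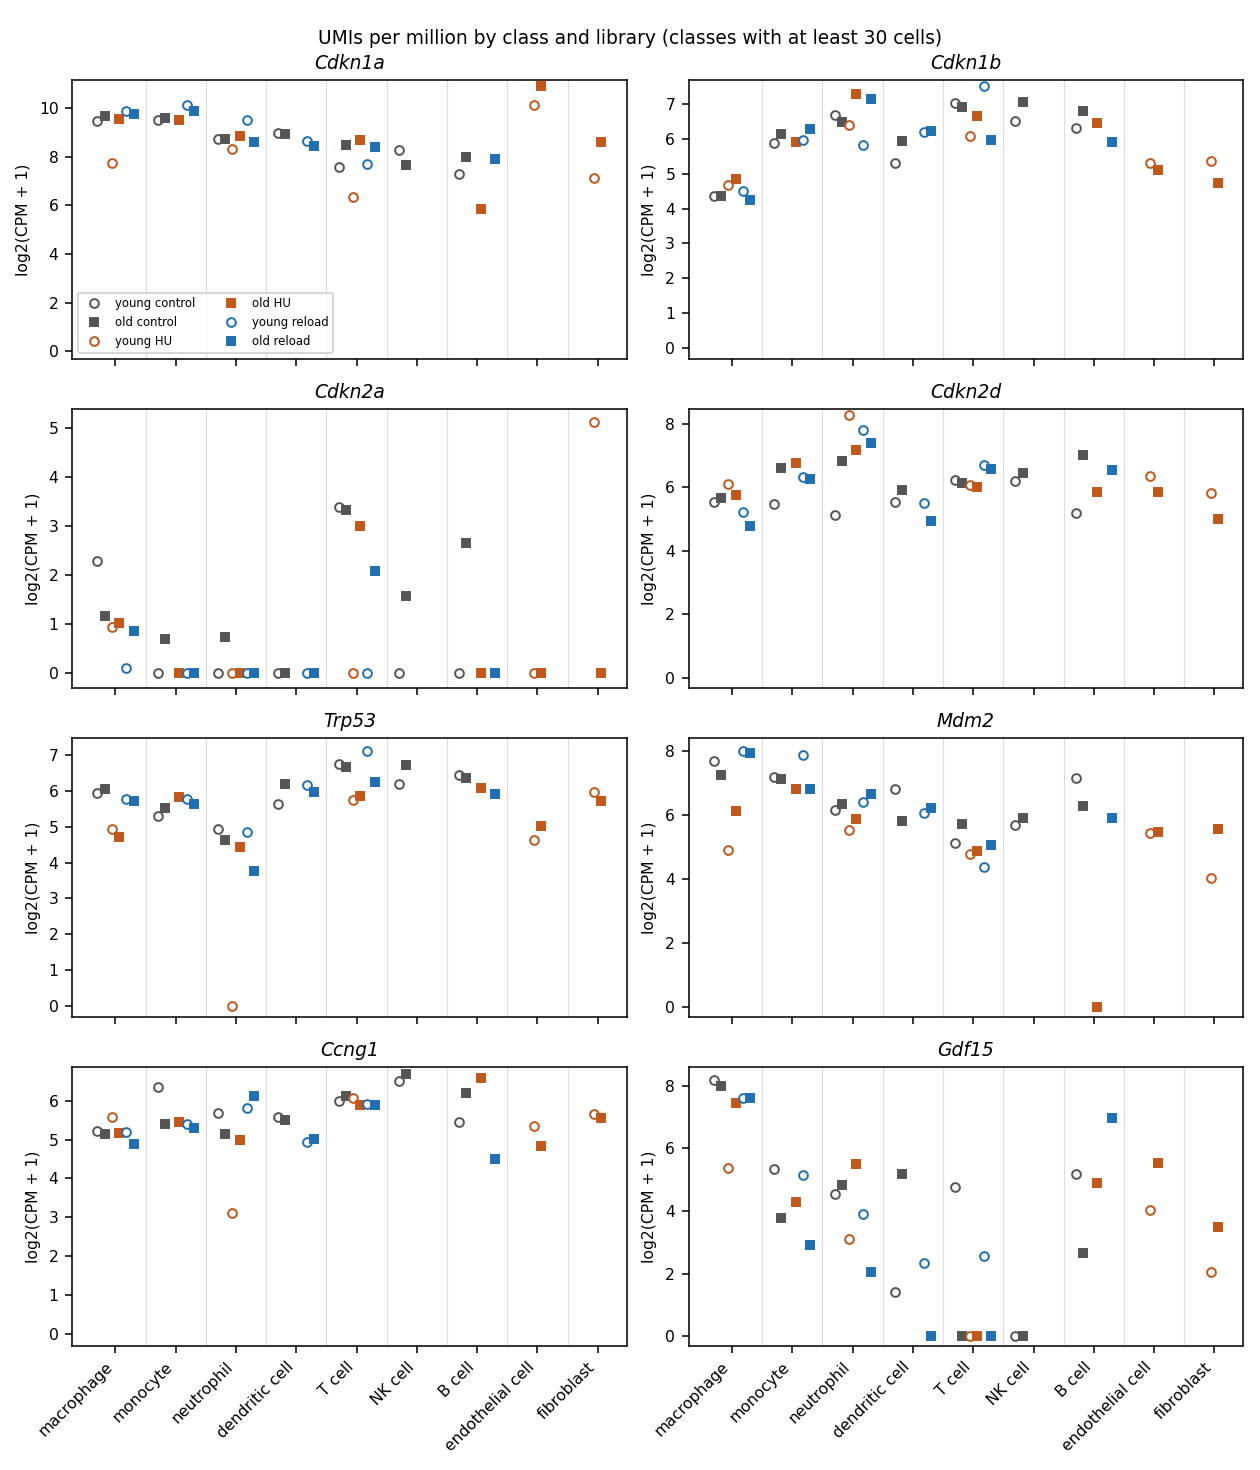
Level of each of the 8 genes as log2(CPM + 1) in the classes with at least 30 cells, 1 point a library, open circles for young and filled squares for old, grey for control, orange for HU and blue for reload. Gdf15 was highest in macrophages, Cdkn2d in neutrophils, and Cdkn1a in endothelial cells, monocytes and macrophages.

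The genes divided the classes along different lines. Macrophages were high in the stress targets Cdkn1a, Mdm2 and Gdf15 and low in Cdkn1b, while T, B and NK cells were low in Cdkn1a, T cells in Mdm2 as well, and T and NK cells were high in Cdkn1b. Neutrophils were high in both Cdkn1b and Cdkn2d and low in Trp53. Each class was set against the mean of the other 8 with edgeR's quasi-likelihood test on 37 sums of UMIs per class and library, with library as a block, and Benjamini-Hochberg adjusted p-values over 9482 genes. Of 63 contrasts of a gene with a class, 20 passed, where 20.2% to 48.9% of all genes passed by class. Cdkn2a had too few UMIs to be tested. These tests set cells of the same libraries side by side, and the spread is that between libraries of different age and treatment.

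In macrophages 6 of 7 tested genes passed, 3 in each direction, where 40.9% of all genes tested passed. Gdf15 was higher by a log2 fold change of 4.68 ± 0.40 (SE, adjusted p = 4.65e-12), Mdm2 by 1.23 ± 0.19 (adjusted p = 1.51e-06) and Cdkn1a by 0.79 ± 0.17 (adjusted p = 0.00018). Cdkn1b fell by 1.64 on the log2 scale (SE 0.17, adjusted p = 3.77e-10), Cdkn2d by 0.58 (adjusted p = 0.0109) and Ccng1 by 0.40 (adjusted p = 0.0365). Across the 6 libraries Gdf15 ranged from 40.3 to 289 CPM in macrophages with a median of 193 CPM. In no other class did its median exceed 32.1 CPM, and some of those values came from a single cell: 56 of 63 UMIs in young reload monocytes, all 23 in old reload B cells and all 14 in young control T cells. In NK cells no Gdf15 UMI was counted in either library with 30 cells, where the floor of 3 counts set for a 0 stands at up to 10.9 CPM.

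Monocytes, from which many muscle macrophages arise, shared the high Cdkn1a (log2 fold change 0.89 ± 0.19, adjusted p = 0.00021) and Mdm2 (0.94 ± 0.22, adjusted p = 0.00101), with 2 of 7 genes called where 31.4% of all genes were. Gdf15 in monocytes was 6.51 to 39.4 CPM and did not pass the test (0.76 ± 0.92, adjusted p = 0.634). In neutrophils, short-lived cells that no longer divide, 3 of 7 genes passed against 48.9% of all genes. Cdkn2d was higher by 1.51 ± 0.21 (adjusted p = 1.34e-07) and Cdkn1b by 1.32 ± 0.18 (adjusted p = 1.07e-07), and Trp53 fell by 1.14 on the log2 scale (adjusted p = 3.02e-05).

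T cells passed for 4 of 7 genes, where 35.7% of all genes passed. Cdkn1b was higher by a log2 fold change of 0.92 ± 0.18 (adjusted p = 5.85e-05) and Trp53 by 0.72 ± 0.16 (adjusted p = 0.000299). Mdm2 fell by 1.25 (adjusted p = 0.000552) and Cdkn1a by 0.86 (adjusted p = 0.000593) on the log2 scale. Cdkn1a was also low in B cells, where it fell by 1.79 (adjusted p = 2.5e-06) and was the only gene of 7 called against 22.6% of all genes, and in NK cells, where it fell by 1.30 (adjusted p = 0.00472). Of the 7 genes, NK cells had 2 called, against 20.2% of all genes, the other being Cdkn1b at 0.80 ± 0.29 (adjusted p = 0.0461). Endothelial cells had the highest Cdkn1a of any class, 1114 CPM in young HU and 1889 CPM in old HU, a log2 fold change of 2.42 ± 0.28 (adjusted p = 7.02e-09). Their Cdkn1b fell by 1.04 on the log2 scale (adjusted p = 0.0168), which makes 2 of 7 genes called against 30.2% of all genes. In dendritic cells and fibroblasts 0 of 7 genes were called by edgeR, where 31.2% and 25.5% of all genes were.

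Ordered by mean CPM, Cdkn1a ran from endothelial cells through monocytes, macrophages, neutrophils, dendritic cells, T cells, fibroblasts and NK cells to B cells. For all 8 genes, 28 neighbouring pairs of classes in such an order shared 3 or more libraries, and none of them differed beyond the spread between libraries at p under 0.05 by a two-sided exact permutation of signs. Only pairs with 6 shared libraries could reach that threshold, with a smallest possible p of 0.03125, while for those with fewer it was 0.0625 to 0.25, so their order is a description. For macrophages and neutrophils, Cdkn1a was higher in macrophages in 5 of 6 libraries, the young HU library being the exception (exact permutation p = 0.094).

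With 1 library for each age and treatment, the old over young ratio of CPM is given with an exact 95% interval for counting error only, and a gene was counted when both libraries together held at least 20 of its UMIs. Past 1.5-fold either way is called higher or lower, which is a description of these libraries and no test. In 17 pairs of a class and a treatment, the 8 genes gave 105 counted ratios, 51 above 1 and 54 below, of which 19 were called higher in old and 13 lower. The genes therefore had no common direction with age. In the same pairs 12.6% to 46.5% of all genes were past 1.5-fold either way. When the cell with most UMIs of the gene was left out of the higher library, a choice made after seeing the data, 13 of the 19 and 8 of the 13 were still called the same way. Cdkn1a had 7 of its 17 ratios called higher and 2 called lower, of which 5 and 1 held without that cell. Cdkn1b had 3 higher and 1 lower, Cdkn2d 3 and 2, Mdm2 2 and 3, and Gdf15 3 and 2 of 8 counted ratios.

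Cdkn1a was higher in old than in young in all 5 classes measured after HU, with every interval above 1. In 4 of these 5 the ratio was past 1.5-fold. In control it was above 1 in 5 of 7 classes and past 1.5-fold either way in 3, and at reload it was above 1 in 1 of 5 classes, the T cells. All HU ratios share the young HU library as their denominator, so they are not independent of one another.

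**Figure D2:**
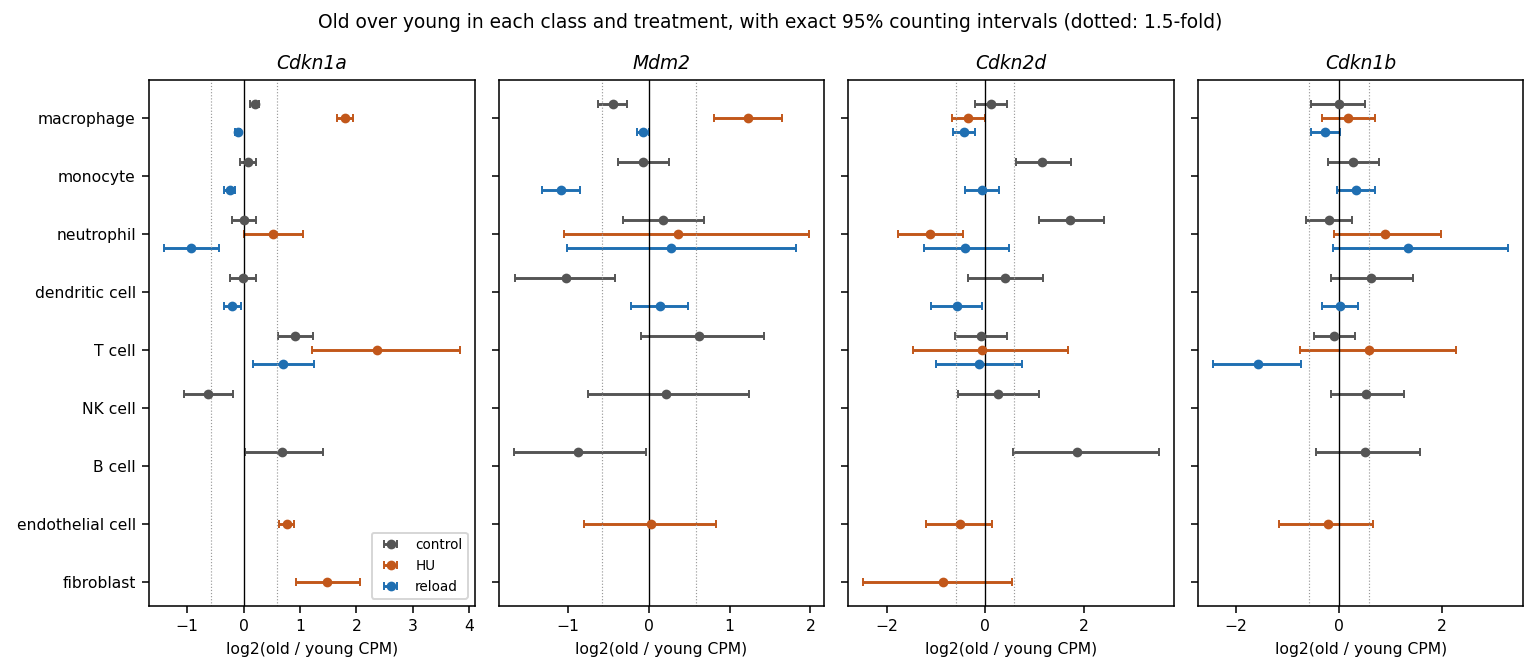
Log2 ratio of old over young CPM for Cdkn1a, Mdm2, Cdkn2d and Cdkn1b in each class, grey for control, orange for HU and blue for reload, with exact 95% counting intervals and dotted lines at 1.5-fold. Each Cdkn1a ratio after HU lies above 0, while most of those in control and at reload lie near 0 or below, with T cells above 0 in each treatment.

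Macrophages carried the most UMIs and showed the pattern with least counting error. Cdkn1a stood at 706 CPM (young) and 811 CPM (old) in control, at 215 and 749 CPM after HU, and at 929 and 865 CPM with reload. The young HU library was the low one and the other 5 lay within 706 to 929 CPM. The old over young ratio was therefore 3.49 (interval 3.15 to 3.86) after HU, 1.15 (1.09 to 1.21) in control and 0.930 (0.905 to 0.957) at reload.

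Gdf15 was also lowest in young HU, with 289 and 254 CPM in young and old control, 40.3 and 174 after HU, and 192 and 195 at reload. Its ratio after HU was 4.33 (interval 3.45 to 5.50). Mdm2 was at 207 and 152 CPM in young and old control, 29.3 and 68.4 after HU, and 255 and 243 at reload, so that both HU libraries were below all others. Its ratio after HU was 2.34 (1.76 to 3.15), against 0.733 (0.649 to 0.826) in control.

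The other 4 counted genes did not pass 1.5-fold in macrophages after HU. Trp53 was 29.7 CPM in young and 25 in old HU and 51.2 to 65.8 CPM in the other 4 libraries, so that the gene for p53 itself was low in both HU libraries. Cdkn2d was 67.2 CPM in young and 53 in old HU, Ccng1 47.1 and 34.9, and Cdkn1b 24.7 and 28.0. In all, 3 of 7 counted genes were called after HU, where 34.8% of all genes were, so the share called either way was near the background. All 3 were higher in old, where 13.4% of all genes were called higher and 21.4% lower. Whether the 3 exceed that share was not tested. In control 1 of 8 was called against 20.9% of all genes, namely Cdkn2a, with 20 UMIs in young and 3 in old and an interval of 0.061 to 1.08 that reaches past 1. At reload 0 of 7 genes were past 1.5-fold, against 12.6% of all genes.

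**Figure D3:**
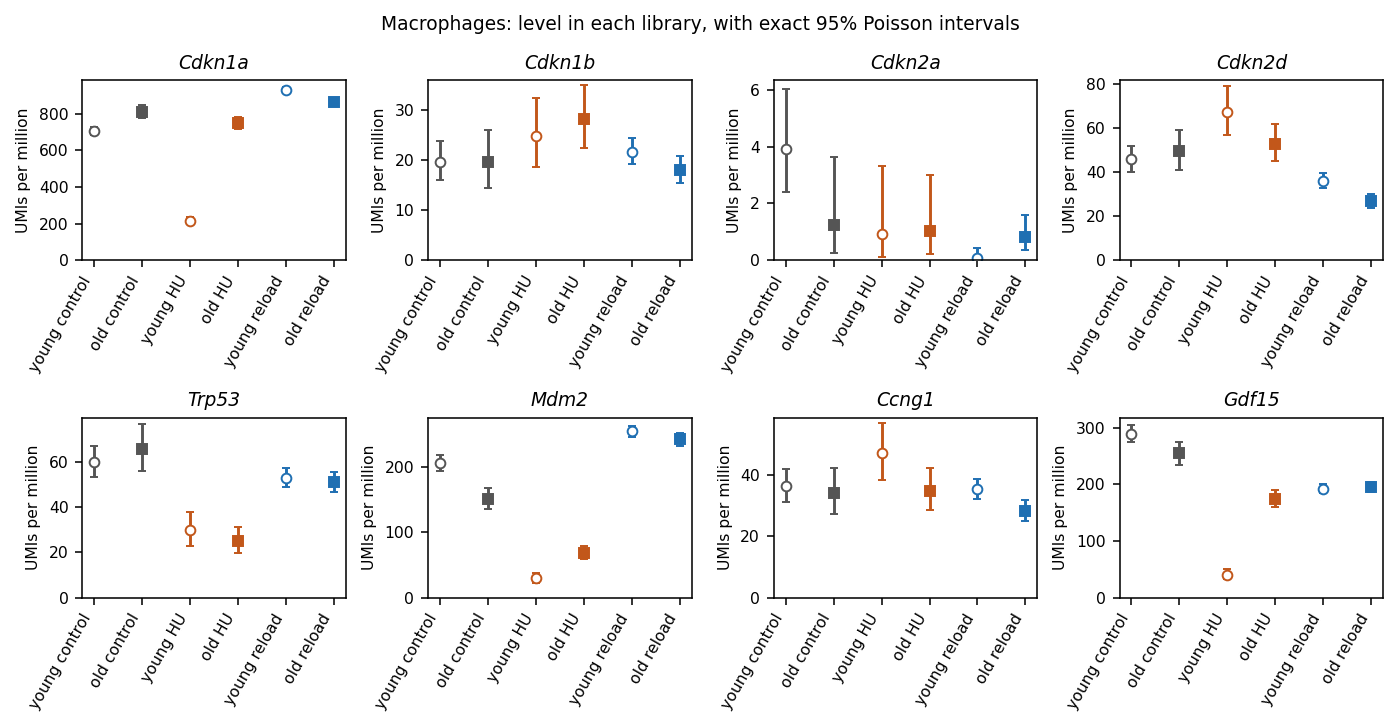
Level in CPM of each of the 8 genes in the macrophages of the 6 libraries, with exact 95% Poisson intervals, on axes that start at 0. Cdkn1a and Gdf15 are lowest in young HU, and Mdm2 and Trp53 are low in both HU libraries.

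The difference between the old and young HU libraries was present in each subset of macrophages that was looked at after the values were known. The subsets are cells of the same libraries, so the split cannot tell age from any other difference between those libraries. Macrophages of resident type, with at least 2 of Lyve1, Vsig4, Cd163, Fcna and Cd209f, had 231 CPM of Cdkn1a in young HU and 826 in old HU, a ratio of 3.58 (interval 3.14 to 4.08). The other macrophages had 195 and 625 CPM, a ratio of 3.2 (2.73 to 3.78). Gdf15 was 29.9 CPM in young and 194 in old in the resident type, and 52.9 and 143 CPM in the others. Resident-type cells made up 53.8% (young) and 60.1% (old) of macrophages after HU, and 11% and 16.2% at reload. Without the cycling cells, defined below, the Cdkn1a ratio was 3.52.

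When each macrophage was thinned to 2000 UMIs, Cdkn1a was detected in 26.7% of 438 young HU cells and in 64.8% of 471 old HU cells, with 151 and 131 shallower cells left out. The other 4 libraries lay at 63.8% to 75.7%. Before thinning the shares were 38.2% at a median of 3227 UMIs and 75.7% at 3745. Gdf15 was detected in 4.57% and 17.8% of the thinned cells of young and old HU, against 0 of 494 thinned T cells of old control, and Mdm2 in 5.94% and 13.6%. Within a library Mdm2 was detected in 39.9% of thinned macrophages with Cdkn1a and in 25.7% of those without at young reload, and in 36.3% and 24% at old reload. The shares were 32.8% and 25.3% in young control and 21.6% and 14.4% in old control. After HU they lay close together, at 5.13% and 6.23% in young, on 117 cells with Cdkn1a, and at 14.1% and 12.7% in old.

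Markers of other cells moved along with the HU libraries. In macrophages the summed neutrophil markers were 37.5 CPM in young HU and 472 in old HU, the haemoglobin genes 176 and 867, and the dissociation and immediate early genes 13237 and 11438 CPM. Within that last list Hspa1a, a heat shock gene, was 1814 CPM in young HU and 292 in old HU. T cell markers had 0 UMIs in young HU macrophages. The part of these differences in the Cdkn1a, Mdm2 and Gdf15 values was not tested.

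Other gene lists around the p53 pathway are given for the same pair of HU libraries. They are to be read against the 34.8% of all genes past 1.5-fold there, 13.4% higher in old and 21.4% lower. Of the other p53 targets, 5 of 16 counted genes were higher in old and 3 lower, with a list median of −0.04 on the log2 scale against −0.14 for all genes. Gadd45a, which slows the cycle after DNA damage, was 3.66 CPM in young and 18.5 in old (5.05-fold). Sesn2 was 3.61-fold, Pmaip1, which promotes apoptosis, 2.28-fold, the death receptor gene Fas 1.81-fold and Btg2 1.6-fold higher. Sesn1 was lower, at 43.5 CPM in young and 18.1 in old, as were Rrm2b and Trp53inp1, whose intervals reach past 1. Bax and Rps27l, the targets with most UMIs, were at 169 and 163 CPM and at 213 and 279 CPM in young and old.

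All 6 counted genes of the integrated stress response, which is known to induce Gdf15, were higher in old HU macrophages, with a median of 1.12. Slc7a11, the cystine transporter, was 4.57 CPM in young and 58.8 in old (12.9-fold). Ddit3 was 20.6 and 62.9 CPM, Atf4, the central factor of the response, 133 and 325, Ppp1r15a 211 and 408, and Atf3 408 and 761. None of the 6 was past 1.5-fold at reload, and 1 was lower in control.

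Secreted factors linked to senescence were higher in old HU macrophages for 15 of 19 counted genes and lower for 3, with a median of 2.28. Ccl5 was 8.69 CPM in young and 156 in old, Il6 3.66 and 55.4, Il1b 48.5 and 591, and Il1a 2.74 and 30.1. Cxcl2 and Ccl2, with most UMIs of the list, were at 1321 and 7145 CPM and at 545 and 1975. Mmp9, Mmp12 and Igfbp4 were lower in old. Many of these genes are also plain inflammatory genes of macrophages, and Mmp9 and Il1b are also expressed by neutrophils. At reload 4 of 22 were higher and 2 lower.

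The other CDK inhibitors, Cdkn1c and Cdkn2c, were 42.1 and 34.2 CPM and 25.6 and 16.4 CPM in young and old HU. Among p53 regulators 3 of 11 were higher, namely Sirt1 (2.51-fold), Usp7 (2.26-fold) and Crebbp (1.99-fold), and Trp53bp1 was lower. Of 12 G1 cyclin, kinase and RB family genes Ccnd2 was higher (3.02-fold) and E2f1 lower, and of 15 proliferation genes 2 were higher and 2 lower. At reload the proliferation genes were higher in old macrophages for 13 of 16, with a median of 1.01 against 0.01 for all genes. Birc5 was 10.7 CPM in young and 33.7 in old, and Stmn1 78.7 and 145. The cyclins Ccnd1 (49.0 and 95.3 CPM) and Ccnd2 (37.6 and 67.3 CPM) and the kinase gene Cdk6 (26.7 and 52.8 CPM) were also higher, with Ccnd3 lower (70.0 and 44.9 CPM). There Cdkn1a differed by less than 1.5-fold.

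**Figure D4:**
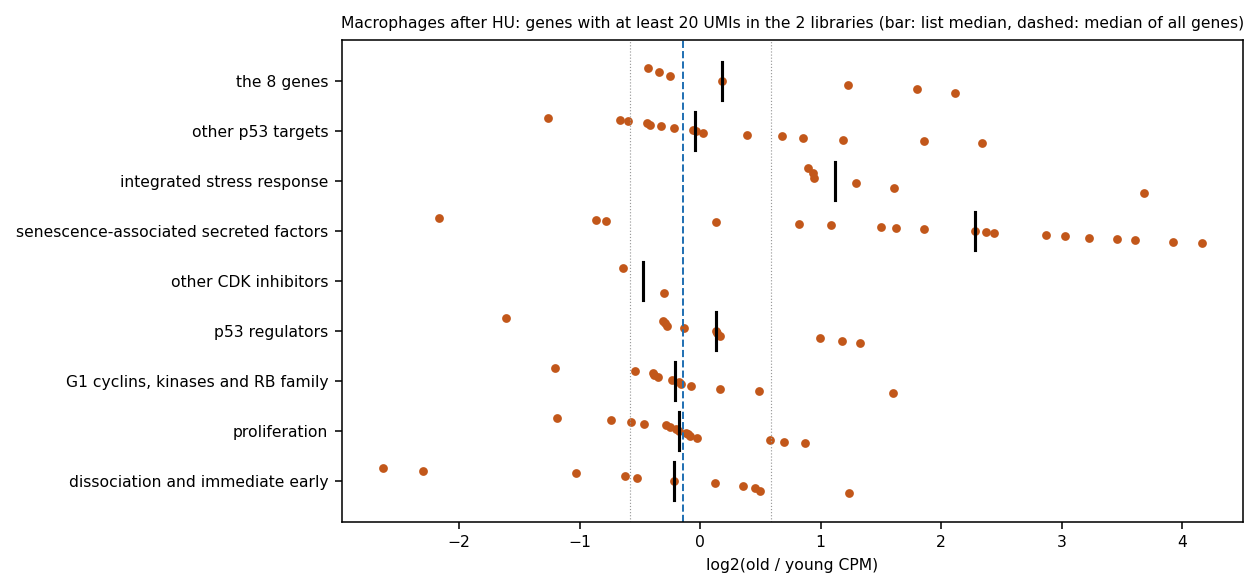
Log2 ratio of old over young CPM in HU macrophages for the genes with at least 20 UMIs of each list, 1 point a gene, with the list median as a black bar, the median of all genes as a dashed line and 1.5-fold as dotted lines. The integrated stress response has a median of 1.12 and the secreted factors of 2.28, while proliferation lies near the median of all genes.

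An age difference common to the 3 treatments was tested in the classes with 30 cells in every library, by edgeR on 6 sums with treatment as a block and 2 residual degrees of freedom. In macrophages 0 of 10168 genes (0%) passed, with 474 at an unadjusted p under 0.05 and 6 called by DESeq2. Cdkn1a had a log2 fold change of 0.63 ± 0.41 (adjusted p = 0.884), which was −0.01 without the young HU library and 0.01 without the old HU library. The fold change over all treatments thus came from the HU pair.

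T cells differed from macrophages in that Cdkn1a was higher in old in each treatment. It was 189 CPM in young and 357 in old control (1.89-fold, interval 1.53 to 2.35), 79.3 and 409 CPM after HU (5.16-fold, 2.32 to 14.3) and 206 and 334 CPM at reload (1.62-fold, 1.12 to 2.38). The young HU value rests on 6 UMIs in 30 cells. Of the 103 UMIs in old reload T cells 22 came from 1 cell, without which the reload ratio was 1.32 (0.900 to 1.97). A looser gate on T cells brought the reload ratio under 1.5-fold, to a log2 ratio of 0.26, as did clusters in place of the gate, to 0.43. In cells thinned to 2000 UMIs Cdkn1a was detected in 23.2% of young and 39.3% of old control T cells, and in 22.9% and 40.3% at reload. Too few young HU cells were left to thin.

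The edgeR fit gave a log2 fold change with age of 1.20 ± 0.31 for Cdkn1a in T cells (adjusted p = 0.587). In that fit 0 of 4282 genes (0%) were called, with 171 at an unadjusted p under 0.05 and 3 called by DESeq2. Its adjusted p was 0.0232 without the filter on low counts, and 0.15 to 0.999 under the alternatives other than leaving out a control library. Without either control library, age was estimated from the same HU and reload pairs, with fewer than the 2 residual degrees of freedom of the full fit. Those fits are not separate results, and their young HU sum holds 6 Cdkn1a UMIs. The fold change stayed at 0.86 to 1.57 under all alternatives. An interaction of age with cell class was not tested.

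T cells were also split by the CD4 and CD8 genes, and those with UMIs of neither or of both had the higher Cdkn1a levels in control. They had there 284 CPM in young and 561 in old, after HU 77.6 and 599, and at reload 208 and 523. The young HU value rests on part of 30 T cells with 6 Cdkn1a UMIs in all. Which subset held the old reload cell with 22 of 103 Cdkn1a UMIs was not looked at. CD8 T cells had 78.4 and 148 CPM in control. At reload CD8 T cells had 207 CPM in young and 181 in old, on 10 and 25 UMIs, and CD4 T cells 204 and 162 CPM, on 14 and 5 UMIs, so that neither subset was higher in old there. T cells without Ccl5, a gene of effector cells, had 222 and 505 CPM in control (2.27-fold, interval 1.79 to 2.91) and 173 and 438 CPM at reload (2.53-fold, 1.53 to 4.37). T cells with Ccl5 had 123 and 210 CPM in control. Macrophage markers in T cells summed to 119 CPM in young and 31.3 in old control, 0 and 23.5 after HU and 88.4 and 48.6 at reload, and so were not higher in the old libraries of control and reload.

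Other genes in T cells moved in 1 treatment each. In control Mdm2 was 34.0 CPM in young and 52.3 in old, past 1.5-fold with an interval of 0.934 to 2.68 and 1.47-fold without 1 cell, so that 2 of 7 genes were called against 31.9% of all genes. After HU Cdkn1a was the only 1 of 5, against 42.7%. At reload Cdkn1b, the inhibitor that keeps T cells quiescent, was 182 CPM in young and 61.6 in old (0.339-fold, interval 0.184 to 0.605) and Trp53 was 137 and 74.5 CPM (0.542-fold, 0.298 to 0.976). With Cdkn1a that makes 3 of 5, against 35.6% of all genes.

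The remaining classes gave ratios for single genes. In neutrophils Cdkn2d was 34.1 CPM in young and 112 in old control (3.28-fold, interval 2.12 to 5.32), but 311 and 144 CPM after HU (0.463-fold, 0.294 to 0.730), on 41 and 42 UMIs. Cdkn1a was 422 and 424 CPM in control, 318 and 455 after HU and 734 and 385 at reload (0.525-fold, 0.377 to 0.739), the last on 49 young cells. Cdkn1b was past 1.5-fold higher in old after HU and at reload, with intervals that reach past 1. Neutrophils thus had 1 of 7, 2 of 4 and 2 of 5 genes called in control, HU and reload, where 32.9%, 46.5% and 42.1% of all genes were. With age across treatments 1 of 3240 genes (0.0309%) passed the edgeR test, and it was none of the 8.

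In monocytes Cdkn2d was 43.6 CPM in young and 97.1 in old control (2.23-fold, interval 1.54 to 3.33). Ccng1 was lower in old there (80.2 and 41.5 CPM), as was Gdf15 (39.4 and 12.7 CPM), so that 3 of 7 genes were called against 33.6% of all genes. In young control 17 of 57 Ccng1 UMIs and 16 of 28 Gdf15 UMIs came from 1 cell each, and without that cell the ratios were 0.725 and 0.735, no longer past 1.5-fold. At reload Mdm2 was 237 CPM in young and 111 in old monocytes (0.470-fold, 0.398 to 0.554). With Gdf15, most of whose young UMIs were in 1 cell, 2 of 7 genes were called against 22.3%, and without that cell the Gdf15 ratio turned to 1.70 (0.632 to 5.05). In the same comparison Cdkn1a was 1103 and 928 CPM. Monocytes fell short of 30 cells in young HU.

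Dendritic cells had 3 of 7 genes called in control against 28.5% of all genes. Mdm2 was 113 CPM in young and 55.1 in old (0.490-fold, interval 0.317 to 0.745), Cdkn1b was 38.6 and 59.7 CPM, and Gdf15 had 1 and 23 UMIs, 21 of them in 1 cell. The Cdkn1b ratio was 1.44 without 1 cell. At reload 0 of 6 were past 1.5-fold, against 17.4%. In control NK cells Cdkn1a was lower in old, 308 and 200 CPM (0.648-fold, 0.481 to 0.875), as 1 of 6 genes against 26.4%, and 0.672-fold without 1 cell of the young library, just short of the call. In control B cells Cdkn1a was 156 and 251 CPM (1.61-fold, 1.02 to 2.64) and Cdkn2d 35.5 and 128 CPM (3.61-fold, 1.48 to 11.4), while Mdm2 was 142 and 77.2 CPM (0.544-fold, 0.314 to 0.974). With Ccng1 these were 4 of 6, against 35.4%, on only 36 young cells. Of the 143 Cdkn1a UMIs in old control B cells 32 came from 1 cell, without which the ratio was 1.30 (0.815 to 2.15), and the Mdm2 and Ccng1 ratios also lost their call without 1 cell (0.713 and 1.47). Cdkn2d was thus past 1.5-fold higher in old control neutrophils, monocytes and B cells, on 23, 31 and 5 young UMIs. In control macrophages it was 45.8 and 49.5 CPM, and in control T, NK and dendritic cells it was not past 1.5-fold. All control ratios share the young control library as their denominator, so they are not independent of one another.

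The cells with endothelial and fibroblast markers, measured after HU only, also had more Cdkn1a in old. It was 1114 and 1889 CPM in endothelial cells (1.70-fold, interval 1.55 to 1.86) and 136 and 381 CPM in fibroblasts (2.80-fold, 1.90 to 4.16). Gdf15 was 15.3 and 45.2 CPM in endothelial cells (2.95-fold, 1.43 to 6.34), which had 2 of 7 genes called against 27.0% of all genes. Fibroblasts had 2 of 4, against 33.1%, the other being Cdkn2d on 24 UMIs in all. Endothelial cells of the young HU library had a higher Cdkn1a level in CPM than macrophages of any library, and it was the lower of the 2 endothelial values. The unassigned cells had 333 and 529 CPM after HU (1.59-fold, 1.41 to 1.79).

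Reload was set against HU across both ages, within 1 sequencing run, by the same edgeR fit with age as a block. The titles of the HU and reload samples begin with different numbers. Treatment and any batch that these numbers may stand for cannot be told apart. In macrophages 954 of 10168 genes (9.38%) passed, and 3 of 7 tested genes were among them. Mdm2 rose at reload by a log2 fold change of 2.40 ± 0.45 (adjusted p = 0.0333) and Trp53 by 0.99 ± 0.19 (adjusted p = 0.0335), while Cdkn2d fell by 0.88 (SE 0.20, adjusted p = 0.0461). Mdm2 was 29.3 and 68.4 CPM in the HU libraries and 255 and 243 at reload. Cdkn1a (1.10 ± 0.50, adjusted p = 0.183) and Gdf15 (1.04 ± 0.59, adjusted p = 0.274) did not pass.

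These 3 calls rest on few libraries. Without the young reload library none of the 3 passed (adjusted p = 0.0583 for Mdm2, 0.254 for Trp53 and 0.214 for Cdkn2d), and without either control library or the old reload library only Mdm2 did. Among resident-type macrophages alone the values were 1.99, 0.83 and −0.69 with adjusted p = 0.0993, 0.174 and 0.185, in a fit that called 41 genes in all. DESeq2 gave an adjusted p of 0.0633 for Cdkn2d. Around these genes, Cdkn1c, the inhibitor p57, fell at reload by 2.44 on the log2 scale (adjusted p = 0.0183), and of 18 other p53 targets Trp53inp1 (fell by 2.06) and Xpc (fell by 1.19) passed. Of 13 G1 genes Ccnd1 rose by 1.99 (adjusted p = 0.0238) and Cdk6 by 1.77 (adjusted p = 0.0329), and 0 of 16 proliferation genes passed by edgeR, with a median of 0.80. The dissociation and immediate early genes had 3 of 11 lower at reload, with Jun falling by 1.73 and Ier2 by 2.25. Their part in the member values was not tested. In T cells 4 of 4282 genes (0.0934%) passed and in neutrophils 0 of 3240 (0%), with 345 at an unadjusted p under 0.05 and 23 by DESeq2, and no gene of the 8 was among those that edgeR called.

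Cycling cells were those with UMIs of at least 5 of 16 proliferation genes, a list that holds none of the 8 genes, and there were 492, of which 260 were macrophages. In macrophages of the 3 libraries with at least 20 such cells, cycling cells were compared with the other cells of the same library by edgeR with library as a block. Cdkn1a was 547 CPM in cycling and 741 in other young control macrophages, 621 and 954 at young reload, and 537 and 913 at old reload. It fell by 0.74 on the log2 scale in cycling cells (SE 0.10, adjusted p = 0.000143), in 3 of 3 libraries.

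Mdm2 fell by 0.65 (SE 0.12, adjusted p = 0.00199), from 215, 261 and 257 CPM in other cells to 170, 192 and 152 CPM in cycling cells. Cdkn2d went the other way and rose by 1.06 ± 0.14 (adjusted p = 0.000197), from 38.3, 33.6 and 21.6 CPM to 80.2, 68.3 and 61.3 CPM. These were 3 of 7 tested genes, where 15.7% of all 9409 genes passed. Cycling cells were deeper, with medians of 11162 to 15306 UMIs against 6639 to 8013 in other cells, and CPM removes only the scale of that difference. Cdkn2c, the closest relative of Cdkn2d, rose by 2.48 ± 0.23, as did the RB family gene Rbl1 (2.5), E2f1 (1.48), Cdk4, the target of both inhibitors (1.01), and Ccne2 (3.55). Of 17 other p53 targets Plk2 and Btg2 fell, by 0.89 and 0.51. Secreted factors were lower in cycling macrophages for 10 of 21 tested genes and dissociation and immediate early genes for 5 of 11, and their part in the values of the 3 genes was not tested.

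**Figure D5:**
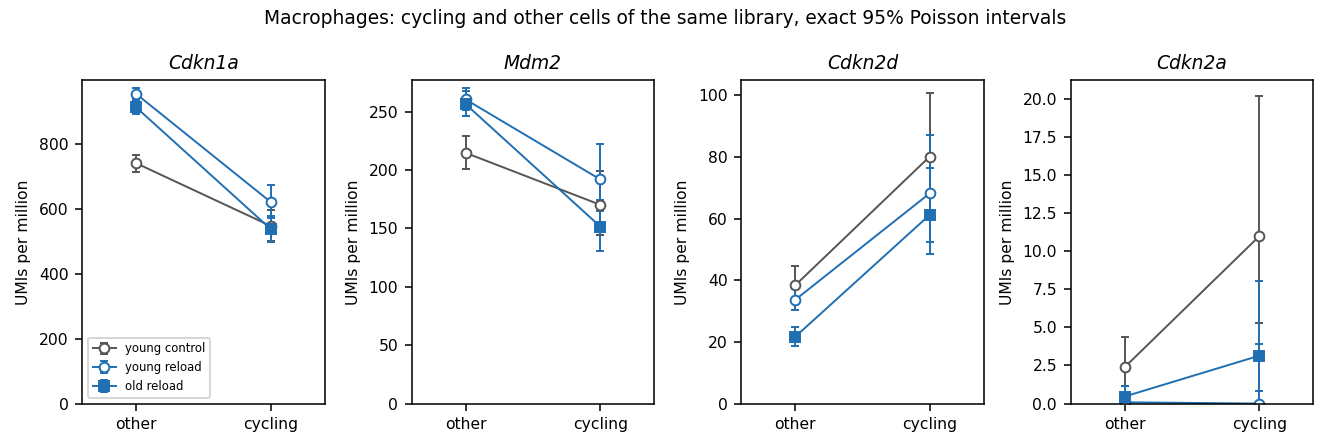
Level in CPM of Cdkn1a, Mdm2, Cdkn2d and Cdkn2a in cycling and other macrophages of the 3 libraries tested, joined by library, with exact 95% Poisson intervals on axes that start at 0. Cdkn1a and Mdm2 are lower and Cdkn2d is higher in the cycling cells of each library.

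Over all classes, in the 5 libraries other than young HU, 5 of 8 genes passed, against 29.9% of 11382 genes. Cdkn1a fell by 0.62 (adjusted p = 0.000732), Gdf15 by 0.67 (adjusted p = 0.0298) and Mdm2 by 0.44 (adjusted p = 0.0378), and Cdkn2d rose by 0.47 ± 0.12 (adjusted p = 0.0108). Gdf15 was lost in 7 of 10 alternatives, with adjusted p up to 0.187, and its level in cycling cells was lower in 4 libraries and higher at young reload (170 against 121 CPM). The mix of classes differs between cycling and other cells here, and its part was not tested. Cdkn2a was the gene with the largest rise, 2.85 ± 0.54 (adjusted p = 0.00178).

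Cdkn2a was rare at both ages. Of its 91 UMIs, 37 were in cycling cells and 59 in the control libraries. By library cycling cells held 16 and 17 UMIs in the young and old control, 0 in both HU libraries, and 0 and 4 UMIs after young and old reload, and other cells 10 and 16, 14 and 8, and 1 and 5. In T cells it had 5 UMIs in young and 21 in old control (9.44 and 9.0 CPM), and 0 and 3 after HU, where the floor of 3 counts for the 0 stands at 39.7 CPM. Macrophages had 3.91 CPM in young control and 0.079 to 1.25 CPM in the other 5 libraries. Dendritic cells had 0 UMIs in 4 libraries, where the floor of 3 counts stands at 1.02 to 5.04 CPM. All 11 UMIs in young HU fibroblasts came from 1 cell.

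Across the 37 sums of class and library, on log2(CPM + 10), the pair among the 8 genes with the highest Pearson correlation was Cdkn1a and Mdm2 (r = 0.66), and the lowest was Cdkn1b and Gdf15 (r = −0.62). Of 7879 other genes, those most like Cdkn1a were Rab5c (0.78), Cd300lg (0.77) and Cd93 (0.75), and those most like Gdf15 were Abca1 (0.81), Cbr2 and Stab1 (0.80 each). Mdm2 was most like B4galt5 (0.81), Mmp19 and Srxn1 (0.79 each), and Cdkn1b like Lmbr1l, Tbc1d10c and Fam107b (0.79 each). Trp53 was most like the ribosomal protein genes Rpl4 and Rpl5 (0.90 each) and Rps23 (0.89). Cdkn2d was most like Per1, D8Ertd738e and Pglyrp1 (0.71 each), and Ccng1 like Zbtb1 (0.76), Trpm7 and Tomm34 (0.67 each). The sums share 6 libraries and differ in depth, so these correlations are descriptions without a test.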

How the data were processed

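Single cells of 6 libraries from pooled solei were sequenced on the 10x Genomics Chromium platform (3′ chemistry). The authors deposited raw UMI counts of genes in barcodes, whole numbers without normalization, and their processing notes name Cell Ranger 3.1.0 and mm10. Barcodes with over 10% of UMIs from mitochondrial genes or fewer than 200 genes were left out. So were 340 doublets, those with the highest scrublet scores in scanpy 1.11.5, at a share that rose with the number of barcodes. Library totals were 5782054 to 22749375 UMIs. Marker gates, at least 3 of 8 markers with a lead of 1, gave the classes, of which those with at least 30 cells were used, and UMIs were summed per class and library. Cells were not used as replicates. Each group has 1 library, so the p-values rest on the spread between libraries of different age or treatment.

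Sums were tested with edgeR 4.0.16 (quasi-likelihood, TMM factors, filterByExpr), with adjusted p-values after Benjamini and Hochberg over all genes tested, at a threshold of 0.05. DESeq2 1.42.0 was an alternative. The fits were tested on simulated data. Ratios carry exact conditional intervals and shares exact Clopper-Pearson intervals at 95%, for counting error only, and a gene at 0 was set to 3 counts. The members of the gene set and all lists were chosen with earlier results of these data known. Named genes were the 8 genes, in each list the 4 with most UMIs and those called, at most 4 each way, and the 3 genes most like each member in the 37 sums. Coordinates are 1-based on GRCm38, the assembly behind mm10. Python 3.11.15, R 4.3.3 and Seurat 5.3.0 were used. Other settings were mitochondrial limits of 5% and 20%, no doublet removal, stricter and looser gates, clusters in place of the gate, thinned cells and leaving out each library.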

Additional observations from a re-analysis of the deposited data

Results flagged for a closer look

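Old over young ratios pointed in opposite directions in 2 treatments of the same class, with both counting intervals clear of no difference and at least 1 ratio past 1.5-fold, for 5 pairs. With 1 library a group these differences were not tested. In macrophages the log2 ratio of Cdkn1a was 1.80 after HU and −0.10 at reload, that of Gdf15 2.12 after HU and −0.18 in control, and that of Mdm2 1.22 after HU and −0.45 in control. In neutrophils Cdkn1a had 0.52 after HU and −0.93 at reload, and Cdkn2d 1.71 in control and −1.11 after HU. The HU ratios of macrophages and neutrophils all use the young HU library.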

How the results depend on the processing

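Of 419 recomputed values for 31 named results, none changed direction and 390 kept their side of the threshold or stayed within their interval. A further 24 were no longer past the threshold, 3 newly passed it and 2 moved out of their interval. The 31 were a chosen set. Their old over young ratios were only Cdkn1a, Mdm2 and Gdf15 in HU macrophages and Cdkn1a in T cells. Of all 32 ratios called, 21 kept their call without the cell with most UMIs in the higher library. That of Gdf15 in reload monocytes turned from 0.191 to 1.70. The number of the 8 genes called in T cells with age was 2 without the low-count filter and 0 to 1 when 1 library was left out. The number called in macrophages at reload against HU was 0 in resident-type macrophages alone and 0 to 5 when 1 library was left out. Of the 5 called in all cycling cells, 3 to 5 were called when 1 library was left out. Ratios past 1.5-fold higher in old numbered 11 with thinned cells, where fewer cells and UMIs were counted. The cause of the other changes was not tested. Subsets of macrophages and T cells and the removal of shared barcodes or of the cell with most UMIs were chosen after seeing the data. T cells could not be fitted at the 5% mitochondrial limit or with the stricter gate, since young HU fell under 30 cells. No paired analysis was possible because the labels give no replicate numbers to pair libraries by, and the blocks in the fits were treatment, age or library. Depth limits Cdkn2a everywhere and all genes in young HU T cells.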
